A study of Mus musculus with 6 samples.

Results

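The matrix metalloproteases (Mmp), the Adamts proteases and the tissue inhibitors of metalloproteases (Timp) were compared between YFP-positive and YFP-negative LSK cells of mouse bone marrow. Every gene with a symbol of Mmp, Adamts or Timp followed by a number was taken, which gave 44 of 22180 genes measured on the arrays: 22 Mmp, 18 Adamts and 4 Timp genes. A RefSeq gene table lists 46 such genes. The other two, Adamts2 and Mmp15, had no probe with their symbol alone and were not analysed here. Each gene is represented by its brightest probe by the mean of the 6 arrays.

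LSK cells lack mature lineage markers and carry Sca-1 and Kit, and the gate contains the stem cells of the blood and its multipotent progenitors. All mice were C57Bl6 and carried both the Tg(Cdh5-Cre/ERT2) transgene, a tamoxifen-inducible Cre under the promoter of the endothelial gene Cdh5, and a YFP reporter at Rosa 26. They received tamoxifen on days 1, 2 and 3 after birth, and marrow was taken at postnatal day 27. A collagenase treatment of 30 min is recorded for every sample of both populations, and its effect on the levels was not tested. The 3 YFP-positive samples hold LSK cells in which, or in whose ancestors, the Cre was active, and the 3 YFP-negative samples hold unmarked LSK cells of mice with the same alleles and treatment. Because YFP is a lineage mark, a YFP-positive cell need not express Cdh5 when it is sorted. The labels do not say whether replicates came from separate animals or pools, so the p-values reflect the spread among these samples alone, and part of it may be technical.

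Matrix metalloproteases are zinc-dependent proteases that cut collagens and other proteins outside the cell, and Adamts proteases are related secreted enzymes with thrombospondin repeats, several of which cut the large proteoglycans aggrecan and versican. Timps bind the active site of matrix metalloproteases and block it, and Timp3 also blocks some Adamts proteases. Such enzymes open the vascular basement membrane when vessels grow, and neutrophils store some of them in granules. In the marrow, Mmp9 is known for releasing the soluble form of Kit ligand.

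The values are log2 expression levels, and each difference is the YFP-positive mean minus the YFP-negative mean on that scale, tested with limma and adjusted over all 22180 genes by the Benjamini-Hochberg method at a threshold of 0.05. The medians of the 6 arrays over all probes lay between 3.62 and 3.68, and a level near or below them cannot be told from background, since no detection calls were used. Where one group sits there, the true change may be larger than its fold. A larger share of cells with a transcript and more transcript per cell cannot be told apart in these bulk samples.

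The marker genes of the cells in the sort differed between the populations and also among replicates. All 10 endothelial markers rose in YFP-positive cells, with summed linear levels of 10477 to 14074 in YFP-positive against 316 to 762 in YFP-negative arrays. Among them Cdh5, whose promoter drives the Cre, measured 11.6, 11.8 and 11.3 in YFP-positive arrays, against 5.40, 4.55 and 3.71 in YFP-negative arrays. Its difference was 7.03 (limma adjusted p = 0.00086). Of 8 stem and progenitor markers, 7 fell (620 to 925 in YFP-positive against 3207 to 3837 in YFP-negative arrays), Kit among them, while Ly6a, which encodes Sca-1, had no probe. The 8 leukocyte markers summed to 1024, 1494 and 5207 in replicates 1, 2 and 3 of the YFP-positive cells, against 4605 to 5236 in YFP-negative arrays, so that the sum of YFP-positive replicate 3 lay within the YFP-negative range. Of these 8, Vav1 and Cd48 fell (adjusted p = 0.00219 and 0.0209), and both were also low in that array, at 5.22 and 6.37, where the lowest YFP-negative levels were 7.44 and 8.67. Mrc1 and Vcam1, which macrophages share with sinusoidal endothelium, rose by 6.76 and 6.07 (adjusted p = 6.8e-05 and 4.3e-05), and the other 6 of 8 macrophage markers and all 3 megakaryocyte markers did not pass. The 8 neutrophil markers summed highest in each population's replicate 3, with 22119 for YFP-positive and 19112 for YFP-negative cells. The 10 measured stromal and osteoblast markers had 0 calls (5 at an unadjusted p under 0.05, 3 higher and 2 lower). Pdgfra, Dcn and Lum were below the median of every array. The 10 markers summed to 163, 309 and 339 in the YFP-positive arrays, against 149 to 165 in the YFP-negative arrays. Cxcl12 (difference 1.82, adjusted p = 0.2) and Lepr (1.87, 0.143), both made by marrow stroma, had YFP-positive levels above all YFP-negative ones and did not pass. Pdgfrb (-0.30, 0.238) had YFP-positive levels below all YFP-negative ones, Bglap differed by -0.50 (0.232), and neither passed. Col1a1, Col1a2 and Col3a1 differed by -0.03, 0.15 and 0.03.

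Among the 44 genes, Adamts5, Adamts1, Mmp14 and Timp3 rose in YFP-positive cells and 0 fell. These are a pair of proteoglycan-cutting proteases, the membrane-bound protease that activates Mmp2, and the inhibitor that stays bound to the matrix. Over all genes 2.88% were called higher and 1.96% lower. The median difference was 0.11 over the 44 genes and -0.01 over all genes. The 3 YFP-positive arrays lay above the 3 YFP-negative arrays without overlap for 11 of the 44 genes, where 10.8% of all genes did, and below them for 0, where 11.9% of all genes did. At an unadjusted p under 0.05 there were 10 of the 44 genes, all with a positive difference. Of all 22180 genes 17.2% did so in either direction, 1727 with a positive and 2093 with a negative difference. For 31 of the 44, the 95% interval of the difference stayed between -1 and 1, against 72.7% of all genes. Below the array median on all 6 arrays were 14 of the 44, against 33.7% of all genes.

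**Figure D1:**
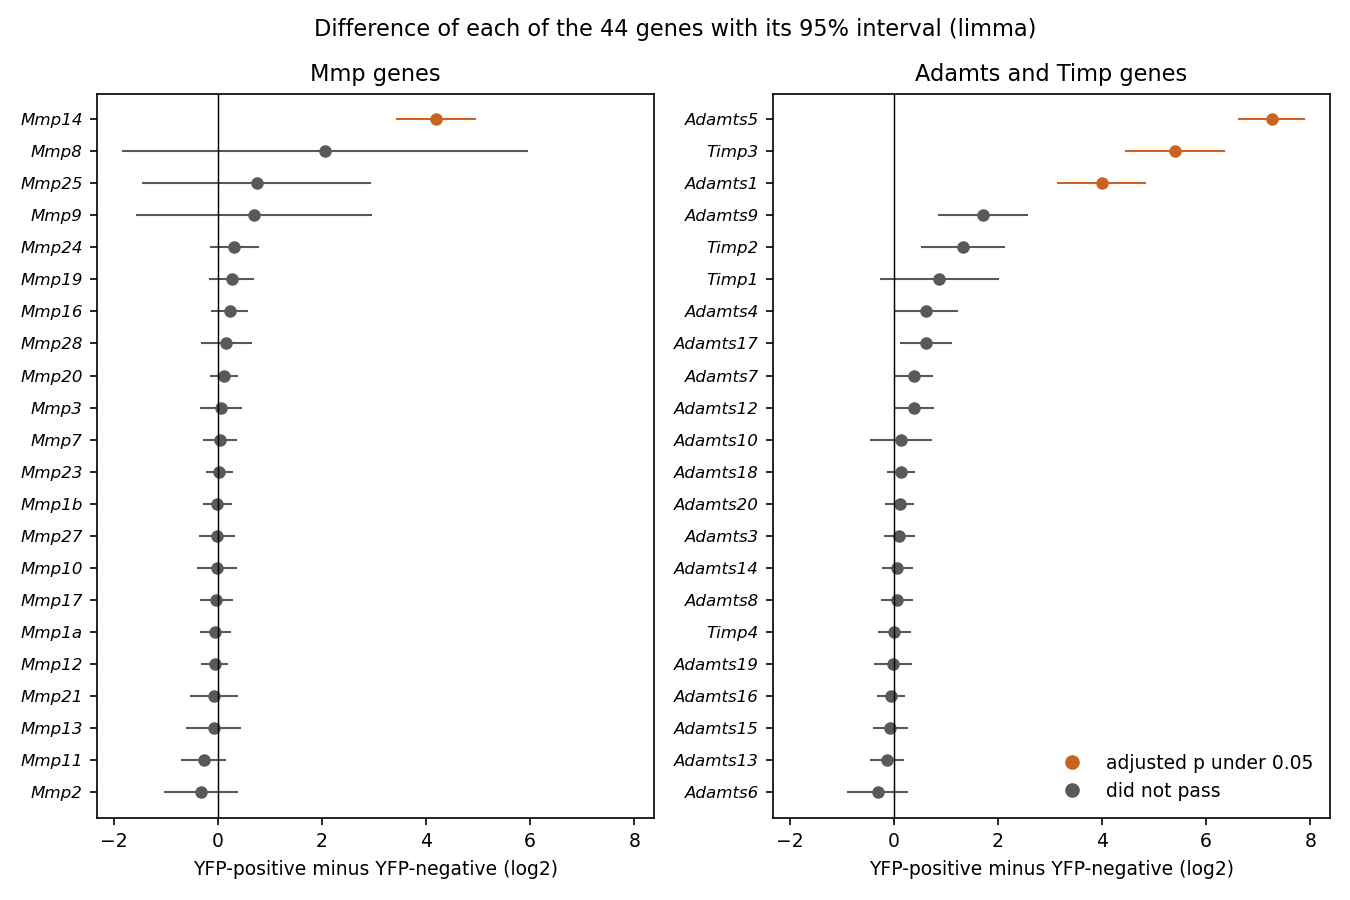
Difference between YFP-positive and YFP-negative LSK cells (horizontal axis, log2) for each of the 44 genes, with the 95% interval from limma; Mmp genes stand left, Adamts and Timp genes right, and orange marks an adjusted p under 0.05. Adamts5 at 7.26, Timp3 at 5.40, Mmp14 at 4.19 and Adamts1 at 3.99 stand apart, and the widest intervals belong to Mmp8, Mmp9 and Mmp25.

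Among the proteoglycan-cutting Adamts genes, Adamts5, the main aggrecan-cutting enzyme of mouse cartilage, measured 10.66, 10.69 and 9.95 in the 3 YFP-positive arrays, against 2.94, 3.51 and 3.07 in the YFP-negative arrays. The groups were far apart, and every YFP-negative level was below its array's median. The difference was 7.26 ± 0.26 (SE), or 153-fold (limma adjusted p = 0.000163). Since the YFP-negative level cannot be told from background, the size of this fold is not settled.

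Adamts1, a secreted protease that cuts versican and aggrecan and is known to restrain vessel growth, measured 9.04, 8.29 and 7.73 in YFP-positive arrays, against 4.07, 4.58 and 4.43 in YFP-negative arrays. All 3 YFP-positive levels lay above all YFP-negative ones. The difference of 3.99 ± 0.34 (SE) was 15.9-fold (limma adjusted p = 0.00307). It did not pass with a model whose variance is not moderated across genes (adjusted p = 0.0606, and 0.00121 to 0.0606 over the 12 alternatives). Adamts1 and Adamts5 are neighbours on chromosome 16, with no other protein-coding gene between them in the RefSeq table. Adamts15 and Adamts8, the other pair of adjacent Adamts genes, had differences of -0.06 and 0.06 (adjusted p = 0.875 and 0.873). Both lay near the array medians, with means of 3.68 and 3.62, and cannot be told from background. A second, dimmer probe of Adamts8 gave 0.26.

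Adamts9, which cuts versican and aggrecan and is made by endothelial cells, measured 6.29, 5.73 and 4.87 in YFP-positive arrays, against 4.01, 3.80 and 3.94 in YFP-negative arrays. The groups did not overlap, but the YFP-positive arrays differed widely, with replicate 3 lowest. The difference of 1.71 ± 0.35 (SE) did not pass (limma adjusted p = 0.0516). It passed without YFP-positive replicate 3 (2.09, adjusted p = 0.00781), and its adjusted p ran up to 0.206 over the 12 alternatives.

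Adamts4, the other major aggrecan-cutting enzyme, measured 5.16, 4.38 and 4.40 in YFP-positive arrays, against 4.22, 3.83 and 4.01 in YFP-negative arrays. The groups lay close together without overlap, and the difference of 0.62 ± 0.24 (SE) did not pass (adjusted p = 0.268). Adamts8, Adamts15 and Adamts20 complete this group of 7 genes, of which 2 rose and 5 did not pass.

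Of the 11 Adamts genes outside that group, 0 passed with limma (3 before adjustment at 0.05, 0 by the unmoderated model). Adamts17 measured 4.83, 4.84 and 4.24 in YFP-positive arrays, against 4.18, 3.99 and 3.87 in YFP-negative arrays, a difference of 0.62 ± 0.20 (SE, adjusted p = 0.174). It passed without YFP-positive replicate 3 (0.82, adjusted p = 0.0399, and up to 0.384 over the 12 alternatives). Adamts7 and Adamts12, which cut cartilage oligomeric matrix protein, differed by 0.39 and 0.38 (adjusted p = 0.231 and 0.268). Adamts18 also showed no overlap between the groups, with a difference of 0.13 and every array below its median. In all, by the brightest probe of each gene, 8 of 18 Adamts genes had YFP-positive levels above all YFP-negative ones, against 10.8% of all genes.

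Adamts13 cuts von Willebrand factor in blood plasma and is made mainly in the liver. It measured 3.21, 3.14 and 3.20 in YFP-positive arrays, against 3.21, 3.21 and 3.53 in YFP-negative arrays. All 6 levels were below the array medians, and the 95% interval of the difference ran from -0.44 to 0.18 (adjusted p = 0.697). Its substrate Vwf measured 4.76, 4.74 and 4.30 in YFP-positive arrays, against 4.15, 4.08 and 3.97 in YFP-negative arrays. The difference of 0.54 did not pass (adjusted p = 0.143), and it passed only in the fit without YFP-positive replicate 3 (adjusted p = 0.0431, up to 0.328 over the 12 alternatives). The procollagen-trimming enzymes Adamts3 and Adamts14 differed by 0.11 and 0.07 and did not pass. Adamts3 was below the median of every array. A second, dimmer probe of Adamts14 gave 0.36, with YFP-positive levels above all YFP-negative ones, so its overlap depends on the probe.

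**Figure D2:**
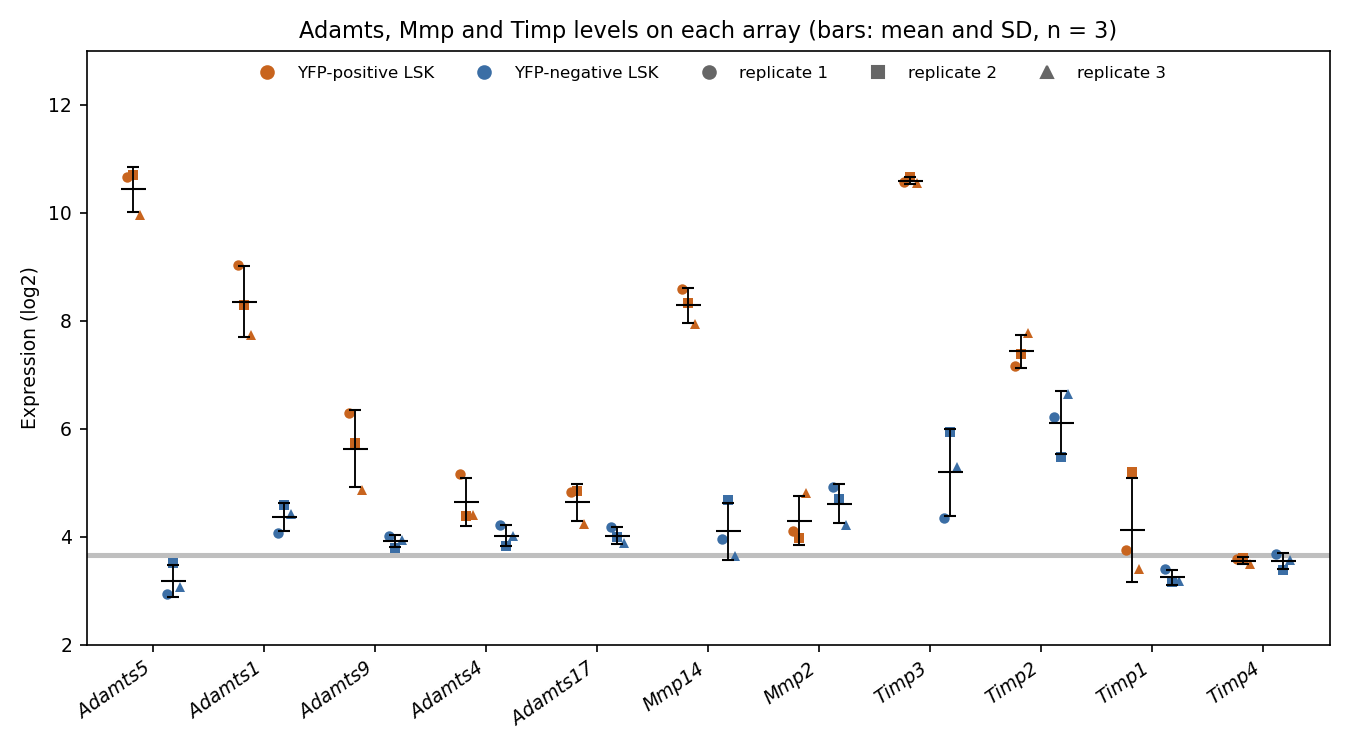
Log2 expression (vertical axis) of 11 Adamts, Mmp and Timp genes on each array, YFP-positive LSK cells in orange left of YFP-negative LSK cells in blue; marker shapes give the replicate, black bars the mean and SD of 3 arrays, and the grey band the range of the array medians, 3.62 to 3.68. For Adamts5, Adamts1, Mmp14 and Timp3 the YFP-positive points sit far above the YFP-negative ones, whereas Mmp2 and Timp4 overlap.

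Among the membrane-type metalloproteases, Mmp14 cuts collagen at the cell surface and converts the proform of Mmp2 to its active form. It measured 8.59, 8.33 and 7.94 in YFP-positive arrays, against 3.96, 4.69 and 3.64 in YFP-negative arrays. The groups were far apart, and 1 YFP-negative array lay below its median. The difference was 4.19 ± 0.31 (SE), or 18.3-fold (limma adjusted p = 0.00179). Of the other 4 measured membrane-type genes, Mmp16, Mmp17 and Mmp24 differed by 0.23, -0.03 and 0.32 and did not pass, and Mmp25 is described with the neutrophil genes.

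Mmp2 is the gelatinase that Mmp14 activates. It measured 4.11, 3.97 and 4.81 in YFP-positive arrays, against 4.92, 4.69 and 4.22 in YFP-negative arrays. The groups overlapped, and the 95% interval of the difference was -1.01 to 0.37 (adjusted p = 0.674), an interval that does not hold the difference measured for Mmp14. The 3 stromelysin genes Mmp3, Mmp10 and Mmp11 had differences of 0.07, -0.02 and -0.27, none past the threshold (0 before adjustment at 0.05, 0 by the unmoderated model).

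Timp3 is the inhibitor that binds to the extracellular matrix, and it blocks Adamts4 and Adamts5 as well as many metalloproteases. It measured 10.56, 10.67 and 10.54 in YFP-positive arrays, against 4.34, 5.94 and 5.29 in YFP-negative arrays. The YFP-positive arrays had an SD of 0.07, and the YFP-negative arrays one of 0.81. The difference was 5.40 ± 0.39 (SE), or 42.2-fold (limma adjusted p = 0.00169).

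Timp2, an inhibitor that also takes part in the activation of Mmp2 by Mmp14, measured 7.16, 7.39 and 7.76 in YFP-positive arrays, against 6.22, 5.47 and 6.64 in YFP-negative arrays. The groups did not overlap, and the difference of 1.33 ± 0.32 (SE) did not pass (adjusted p = 0.0858). Timp1, a secreted inhibitor with broad action, measured 3.75, 5.21 and 3.40 in YFP-positive arrays, against 3.40, 3.15 and 3.18 in YFP-negative arrays. A single array, YFP-positive replicate 2, was high, and the difference of 0.87 did not pass (adjusted p = 0.426). Without that array the difference was 0.33. Timp4 differed by 0.01, with a 95% interval of -0.28 to 0.30 (adjusted p = 0.982). Its levels of 3.38 to 3.68 lay near or below the array medians and cannot be told from background. Of the 4 inhibitors, 1 rose and 3 did not pass.

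Endothelial markers were also higher in the YFP-positive arrays. Of the 11 genes whose groups did not overlap, 7 had their lowest YFP-positive level in replicate 3. For 11 genes this is not far from the 49.8% of all genes without overlap, and it is not read as a trait of these genes. Adamts1, Adamts5, Adamts9 and Mmp14 were among the 7, and Timp3 only narrowly (10.54 against 10.56 and 10.67). Timp2, Adamts7 and Adamts18 were highest in that array, and Adamts4 was lowest in replicate 2. The endothelial sum was lowest in YFP-positive replicate 3, at 10477 against 13222 and 14074. The part of endothelial cells in the sort in these values was not tested. Leaving out YFP-positive replicate 3 left Adamts5, Adamts1, Mmp14 and Timp3 past the threshold, as did leaving out each other array in turn. Over these 6 fits the difference of Adamts5 ran from 7.13 to 7.50, that of Timp3 from 4.97 to 5.78, that of Mmp14 from 3.96 to 4.49, and that of Adamts1 from 3.65 to 4.30.

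Promoter windows from RefSeq, build GRCm38.p6, were matched by symbol for 30 of the 44 genes, Adamts5 not among them. The 250 bases before the transcript start are shown for the 3 genes that rose and had a window. Capitals mark matches, on either strand, to the GC box GGGCGG, the TATA box TATAAA and the AP-1 site TGANTCA. The window of Mmp14 is chr14:54431348-54431597 on the plus strand, that of Timp3 is chr10:86300162-86300411 on the plus strand, and that of Adamts1 is chr16:85803114-85803363 on the minus strand.
Mmp14: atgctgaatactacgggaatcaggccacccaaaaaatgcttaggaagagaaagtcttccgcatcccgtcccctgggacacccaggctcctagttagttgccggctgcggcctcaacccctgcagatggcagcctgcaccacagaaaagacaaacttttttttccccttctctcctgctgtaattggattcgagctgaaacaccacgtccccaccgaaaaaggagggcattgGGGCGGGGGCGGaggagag
Timp3: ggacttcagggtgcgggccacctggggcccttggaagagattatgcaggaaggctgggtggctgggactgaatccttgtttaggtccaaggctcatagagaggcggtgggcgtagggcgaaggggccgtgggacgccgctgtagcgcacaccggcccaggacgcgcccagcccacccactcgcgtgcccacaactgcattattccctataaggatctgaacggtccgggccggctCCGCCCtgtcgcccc
Adamts1: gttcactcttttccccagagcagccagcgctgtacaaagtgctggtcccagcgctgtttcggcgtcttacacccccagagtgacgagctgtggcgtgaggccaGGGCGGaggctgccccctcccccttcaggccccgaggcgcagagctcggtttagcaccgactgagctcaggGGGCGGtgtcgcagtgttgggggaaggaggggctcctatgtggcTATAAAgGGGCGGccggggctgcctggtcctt
All 3 held a GC box, which 35.4% of all genes with windows did, and so did 11 members that were not called. Mmp14 had 2 copies side by side, from -19 to -14 and from -13 to -8, Timp3 had 1, and Adamts1 had 3 and a TATA box just before the last. No AP-1 letters were found in these 3 windows, and 7.82% of all genes held them. A match is a description of the letters and not evidence of a bound factor.

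A block of 10 Mmp genes on chromosome 9 held no call. Of all genes only 4.84% were called in either direction, so this is not read as a trait of the block. Mmp13, Mmp12, Mmp1b, Mmp3, Mmp1a, Mmp10, Mmp8, Mmp27, Mmp20 and Mmp7 follow each other with no other protein-coding gene between them, and they include collagenases, stromelysins, the macrophage elastase Mmp12 and the enamel protease Mmp20. Of these, 0 passed with limma (0 before adjustment at 0.05, 0 by the unmoderated model). Below the median of every array were 8 of the 10, against 33.7% of all genes. Without Mmp8, the differences of the other 9 ran from -0.07 to 0.12. Mmp1a and Mmp1b are close copies, and their probes may share signal. Nothing can be said of a change below background.

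In the block, 8 of 10 genes held AP-1 letters in a window and 7 held both these and a TATA box in the same one, which 1.45% of all genes did, and 0 of 10 held a GC box. Among the 20 other members with a window, 0 held AP-1 letters and 14 a GC box. Of all genes with windows, 7.82% held AP-1 letters and 35.4% a GC box. The 10 genes of the block are neighbours of 1 family, so they do not count as independent cases. The windows of Mmp3 (chr9:7445572-7445821), Mmp10 (chr9:7502092-7502341) and Mmp13 (chr9:7272264-7272513), all on the plus strand, are shown for comparison with those of Mmp14, Timp3 and Adamts1.
Mmp3: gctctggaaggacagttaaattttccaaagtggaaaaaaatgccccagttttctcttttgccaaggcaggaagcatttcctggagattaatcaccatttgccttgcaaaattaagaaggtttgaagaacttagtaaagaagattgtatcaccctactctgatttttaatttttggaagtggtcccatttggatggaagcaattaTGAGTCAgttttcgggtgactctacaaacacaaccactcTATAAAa
Mmp10: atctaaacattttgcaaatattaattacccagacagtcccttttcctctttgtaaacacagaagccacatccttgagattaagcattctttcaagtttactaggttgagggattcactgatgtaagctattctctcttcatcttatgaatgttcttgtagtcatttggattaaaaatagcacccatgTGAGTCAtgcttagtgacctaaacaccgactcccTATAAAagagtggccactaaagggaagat
Mmp13: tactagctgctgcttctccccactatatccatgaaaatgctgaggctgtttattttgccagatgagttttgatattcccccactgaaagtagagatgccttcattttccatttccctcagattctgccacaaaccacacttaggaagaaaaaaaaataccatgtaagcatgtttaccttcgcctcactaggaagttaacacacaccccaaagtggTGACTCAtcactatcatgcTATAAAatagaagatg
Each has a single AP-1 match followed by a single TATA match nearer the start. The AP-1 letters begin at -46 in Mmp3, -63 in Mmp10 and -35 in Mmp13, and the TATA letters at -7, -29 and -16.

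**Figure D3:**
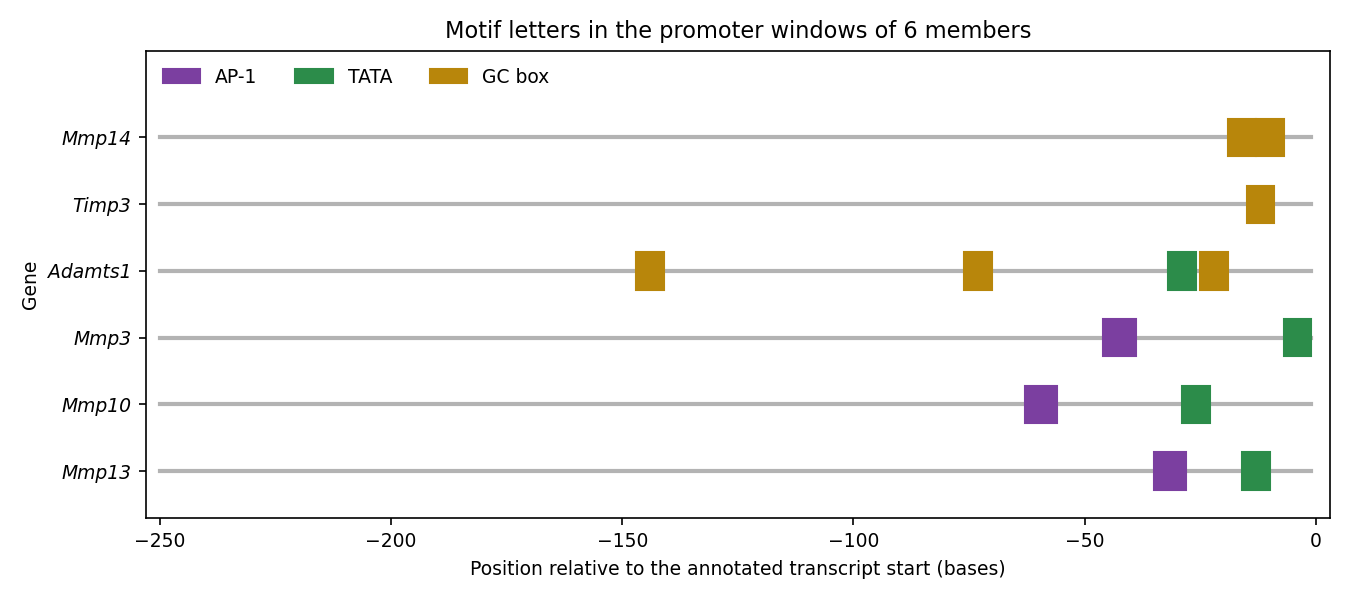
Matches to 3 motifs in the 250 bases before the transcript start of 6 genes, with position in bases on the horizontal axis; purple marks AP-1, green TATA and gold GC box letters. Mmp14, Timp3 and Adamts1, which rose, hold GC box letters, as 11 members not called do, and Mmp3, Mmp10 and Mmp13, which were not called, hold an AP-1 match before a TATA match.

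Mmp8, Mmp9 and Mmp25 differed more among the replicates of a population than between the populations' means. Mmp8, the collagenase of neutrophil granules, measured 6.98, 8.27 and 11.0 in replicates 1, 2 and 3 of the YFP-positive cells, against 6.03, 4.36 and 9.69 in those of the YFP-negative cells. Replicate 3 was highest in both populations, and the groups overlapped. The difference of 2.06 ± 1.59 (SE) did not pass (adjusted p = 0.618), and its 95% interval, -1.82 to 5.94, leaves a large difference in either direction possible. It was 0.89 without YFP-negative replicate 2 and 3.56 without YFP-negative replicate 3, with adjusted p from 0.269 to 0.887 when 1 array was left out.

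Mmp9, the gelatinase of neutrophils and other blood cells, measured 5.92, 5.60 and 8.13 in YFP-positive arrays, against 5.11, 4.99 and 7.46 in YFP-negative arrays. Replicate 3 was again highest in both populations, with SDs of 1.38 and 1.39. The difference of 0.70 ± 0.92 (SE) did not pass (adjusted p = 0.797), and it was -0.10 without YFP-positive replicate 3. Mmp25, a membrane-anchored protease of neutrophils, measured 5.39, 5.16 and 7.33 in YFP-positive arrays, against 4.61, 4.11 and 6.91 in YFP-negative arrays (difference 0.75, adjusted p = 0.769). Its difference was 0.06 without YFP-positive replicate 3 and 1.59 without YFP-negative replicate 3, and it passed in neither. For Mmp8, Mmp9 and Mmp25 the YFP-positive level was above the YFP-negative one of the same replicate number in every case. The labels do not say that equal numbers are pairs. With the replicate number as a block in limma, the adjusted p was 0.224, 0.08 and 0.126, and none passed.

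Of the 8 neutrophil markers, 6 were highest in replicate 3 of both populations, and Mpo and Prtn3 were not. Ltf, the lactoferrin of neutrophil granules, measured 8.94, 9.56 and 11.3 in replicates 1, 2 and 3 of the YFP-positive cells, against 5.77, 7.36 and 10.3 in those of the YFP-negative cells. The summed level of the 8 markers was 11017, 13272 and 22119 in YFP-positive arrays, against 5075, 8134 and 19112 in YFP-negative arrays. Their order among replicates 1 and 2 of the YFP-negative cells differed from that of Mmp8, Mmp9 and Mmp25, which were each lowest in replicate 2. The part of neutrophils in these 3 Mmp values was not tested.

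**Figure D4:**
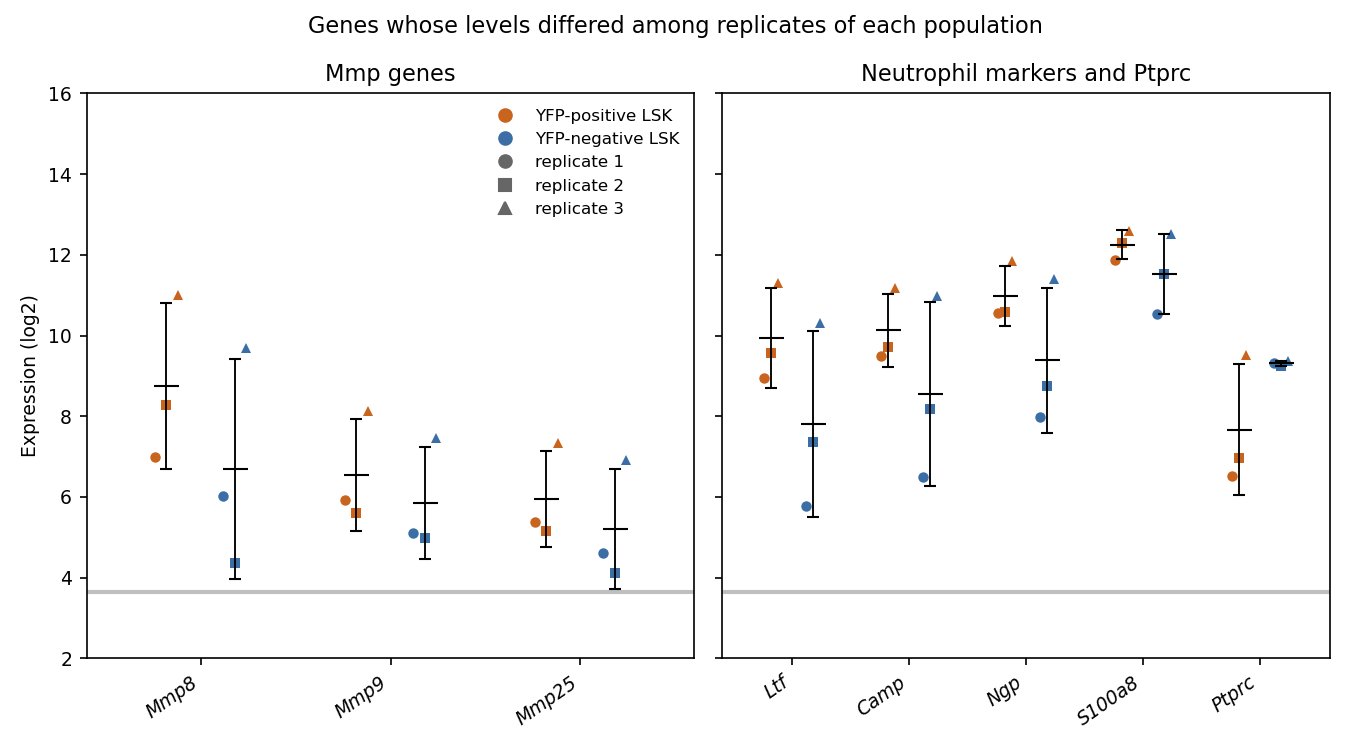
Log2 expression (vertical axis) of 3 Mmp genes, left, and of 4 neutrophil markers and the leukocyte gene Ptprc, right, YFP-positive arrays in orange left of YFP-negative arrays in blue, with marker shapes for replicates, black bars for mean and SD of 3 arrays, and a grey band for the array medians. Replicate 3 (triangles) is the highest array of each population for Mmp8, Mmp9, Mmp25 and the 4 neutrophil markers.

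The partner genes of these proteases, chosen as Adamts-like proteins, activators, inhibitors, clearance receptors, related proteases and substrates, were read from the same fit. Of 41 measured partners, 6 rose, 0 fell and 35 did not pass, beside 2.88% of all genes called higher, and the median difference was 0.21. Both proteoglycans among the 6 had YFP-negative levels far below every YFP-positive one. Bgn, the small matrix proteoglycan biglycan, measured 11.55, 11.81 and 11.31 in YFP-positive arrays, against 5.52, 6.64 and 4.41 in YFP-negative arrays (6.03 ± 0.54 SE, 65.4-fold, limma adjusted p = 0.00362). With the mean of its probes in place of the brightest one, the difference of Bgn was 4.92 (adjusted p = 0.00053). Hspg2 encodes perlecan, a heparan sulfate proteoglycan of basement membranes, and measured 8.53, 8.85 and 7.95 in YFP-positive arrays, against 4.62, 4.44 and 4.66 in YFP-negative arrays (3.87 ± 0.24 SE, adjusted p = 0.000912).

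The other 4 that rose were proteases. Plau, the urokinase that makes plasmin, measured 8.87, 9.06 and 7.74 in YFP-positive arrays, against 5.02, 4.90 and 5.89 in YFP-negative arrays (9.76-fold, adjusted p = 0.0136). Adam19 measured 6.35, 7.69 and 7.33 in YFP-positive arrays, against 3.51, 3.48 and 3.65 in YFP-negative arrays (11.9-fold, adjusted p = 0.0045). Its YFP-negative levels cannot be told from background, so the size of the fold is not settled, and with the mean of its probes the difference was 2.57 in place of 3.58. Adam9 rose by 2.31 ± 0.36 (SE, adjusted p = 0.0223) and Adam12 by 2.02 ± 0.35 (SE, adjusted p = 0.0325). These 3 are membrane-anchored proteases that shed surface proteins. In fits that left out 1 array, Bgn, Hspg2 and Adam19 passed in all 6. Plau did not pass when replicate 1 of either population or YFP-negative replicate 2 was left out (adjusted p up to 0.0591). Adam9 did not when replicate 1 of either population or YFP-positive replicate 2 was (up to 0.074), and Adam12 passed only without YFP-positive replicate 3 (0.00356 to 0.106).

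Tfpi2, a serine protease inhibitor of the matrix, measured 6.40, 5.27 and 5.85 in YFP-positive arrays, against 4.55, 4.19 and 4.48 in YFP-negative arrays. The groups did not overlap and the difference of 1.44 did not pass (adjusted p = 0.0512). It passed in 4 of the 12 alternatives, which were the filter on level, the replicate block, eBayes trend and the fit that left out YFP-positive replicate 2. The adjusted p ran between 0.0302 and 0.2. Reck, a membrane-anchored inhibitor of metalloproteases, differed by 0.28 (adjusted p = 0.492). The sheddase Adam17 measured 7.60, 7.62 and 7.35 in YFP-positive arrays, against 6.72, 7.32 and 6.58 in YFP-negative arrays, and did not pass (adjusted p = 0.188).

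Versican and aggrecan, the best-known substrates of the Adamts proteases that rose, had no call. Vcan, which encodes the versican cut by Adamts1, Adamts4, Adamts5 and Adamts9, measured 2.99, 3.06 and 2.91 in YFP-positive arrays, against 3.00, 3.06 and 3.78 in YFP-negative arrays. All but 1 of the 6 levels were below the array medians, and the difference of -0.29 did not pass (adjusted p = 0.611). Acan, which encodes aggrecan, differed by -0.03 (adjusted p = 0.94). All 6 Acan levels were below the array medians and cannot be told from background. Kitl, whose product Mmp9 releases, measured 2.45, 3.56 and 2.68 in YFP-positive arrays, against 2.87, 2.82 and 2.72 in YFP-negative arrays, all below the array medians (adjusted p = 0.926).

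Some partners followed the replicate, as Mmp8 did. Thbs1, the matrix protein thrombospondin 1, measured 3.63, 3.88 and 8.65 in replicates 1, 2 and 3 of the YFP-positive cells, against 3.60, 3.78 and 7.30 in those of the YFP-negative cells. Adam8, a protease of myeloid cells, measured 4.53, 4.20 and 7.45 in YFP-positive arrays, against 4.09, 4.09 and 5.61 in YFP-negative arrays. Plaur, the urokinase receptor, measured 6.14, 5.80 and 8.95 in YFP-positive arrays, against 6.15, 6.21 and 7.78 in YFP-negative arrays. None of the 3 passed (adjusted p = 0.931, 0.762 and 0.937), and replicate 3 was the highest array of each population for all of them.

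Cd44, the hyaluronan receptor that docks Mmp9 at the cell surface, was also highest in replicate 3 of each population. It differed from these genes in that all its YFP-negative levels were high. It measured 3.81, 3.85 and 6.26 in replicates 1, 2 and 3 of the YFP-positive cells, against 6.08, 5.79 and 6.35 in those of the YFP-negative cells. Only YFP-positive replicates 1 and 2 were low. The difference of -1.43 did not pass (adjusted p = 0.361), but without YFP-positive replicate 3 it was -2.25 and passed (adjusted p = 0.00557, against up to 0.634 over the 12 alternatives).

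**Figure D5:**
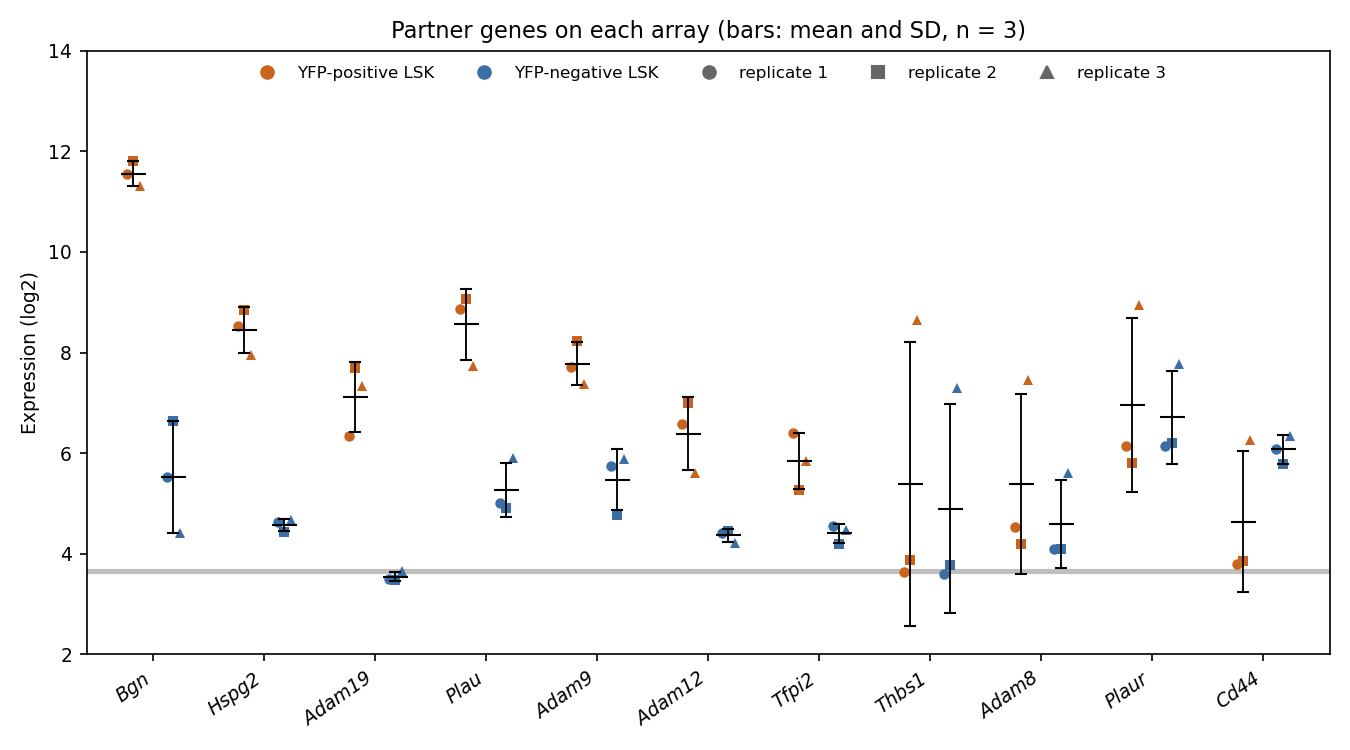
Log2 expression (vertical axis) of 11 partner genes on each array, YFP-positive arrays in orange left of YFP-negative arrays in blue, with marker shapes for replicates, black bars for mean and SD of 3 arrays, and a grey band for the array medians. Bgn, Hspg2, Adam19, Plau, Adam9, Adam12 and Tfpi2 do not overlap between populations, Thbs1, Adam8 and Plaur are highest in replicate 3 of both, and Cd44 is low in 2 of the 3 YFP-positive arrays.

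The members not named by the rule numbered 31. Their differences ran from -0.31 to 0.75, their adjusted p from 0.174 to 0.983, and 29 of them had a 95% interval inside -1 to 1. Adamts6 had a difference of -0.31 and Mmp11 of -0.27, the lowest of these. A second probe of Mmp11 gave 0.18, so its direction depends on the probe.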

How the data were processed

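Expression was measured on 6 arrays, 3 of YFP-positive and 3 of YFP-negative LSK cells. Amplification started from 500 pg of total RNA and used Ovation Pico V2, per the labels' protocols. The submitters' processing notes name Partek, without a version; how background, probe summaries and normalization were handled is not given in the sources used here. As deposited, the values are log2 levels, read as such from their range of 1.53 to 13.7, for 41345 probes. The number of arrays limits the precision.

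Probes were named from the platform annotation: 23521 had 1 gene symbol, 1814 had several and were left out, and 16010 were unnamed. The probe with the highest mean over the 6 arrays stood for each of 22180 genes. The populations were compared in R 4.3.3 with limma 3.58.1 (lmFit, eBayes, two-sided), without a filter or covariate, and the fit was tested on simulated data. Alternatives were an unmoderated model, probe means, a filter on level, quantile normalization, eBayes with trend, the replicate number as a block, and leaving out each array.

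The members and lists were chosen with earlier results of these data known. Named by rule were members past the threshold or with a difference of at least 1, all Timps, 7 set members, the 3 members with the highest mean per protease family, partners past the threshold and 4 set partners. Mmp25, Adamts7, Adamts12, Adamts17, Adamts18, Thbs1, Adam8, Plaur, Tfpi2, Adam17 and Cd44 were added after their values were seen, as were other members and the markers named in passing.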

Additional observations from a re-analysis of the deposited data

How the results depend on the processing

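The calls of Adamts5, Mmp14 and Timp3 held in all 12 alternatives, and that of Adamts1 in all but the unmoderated model (adjusted p = 0.0606). The number of the 44 genes called higher was 3 to 5 in the alternatives that kept all arrays and 4 to 6 when an array was left out, and 0 were called lower in any. Adamts9 also passed with the filter on level (adjusted p = 0.0341) and with eBayes trend (0.0354). All genes called, 1074 (639 higher, 435 lower), numbered 180 (145 and 35) with the unmoderated model, and 430 to 1185 (319 to 668 and 111 to 517) without 1 array; partners called higher numbered 1 with the unmoderated model, and 3 to 8 without 1 array, with 0 to 1 lower. With the replicate block, all genes called numbered 580 (412 higher, 168 lower), 4 of the 44 genes were higher, and Plau and Adam9 did not pass (adjusted p = 0.0632 and 0.0835), while Tfpi2 did (0.0496). The replicate numbers were not taken as pairs: deviations of same-numbered arrays correlated at 0.0985, 0.0806 and 0.167, although each array correlated best with its own number, a hint from the data and not the design. Timp4 was -0.0078 with quantile normalization. Without 1 array, Timp4 ran from -0.074 to 0.079, Mmp9 from -0.10 to 1.50, Kitl from -0.24 to 0.32, Thbs1 from -1.14 to 1.69, Adam8 from -0.23 to 1.39 and Plaur from -0.74 to 0.84; none of these 6 passed in any fit. The causes of these changes were not tested. The unmoderated model and the fits without an array have less information on the spread. Calls did not always drop, and without YFP-positive replicate 3 all genes called numbered 1185, against 1074 in the main fit. Genes below the median level, Timp4, Kitl, Vcan, Adamts13 and Adamts18, have no value under the filter.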
